A study of Mus musculus with 10 samples.

Results

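The homeostatic astrocyte genes are 10 genes that resting astrocytes express strongly: Aqp4, Slc1a2, Slc1a3, Aldh1l1, Aldoc, Glul, Gja1, Gjb6, Sox9 and S100b. They were taken by symbol from the 56884 genes of the count table, and all 10 had enough counts to be among the 17622 genes tested. RNA came from hippocampus of 10 ovary-intact female P301S mice (the PS19 line), of which 5 carried an empty (void) implant and 5 an implant of DHT. Mice of both groups carry human Tau with the P301S mutation under the mouse Prnp promoter, so every comparison here is within tauopathy. DHT, an androgen that aromatase cannot convert to estrogen, was given from 6 months of age for 12 weeks in subcutaneous tubing filled over 10 mm. Tissue was taken at 9 to 9.5 months, with 1 library per mouse. The comparison asks whether DHT shifted the level of these genes.

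Astrocytes take up glutamate released at synapses, turn it into glutamine, and pass ions, water and small metabolites along a network of gap junctions. The genes that carry out this work mark the homeostatic state. In the reactive state that astrocytes enter in many brain diseases, intermediate filament genes such as Gfap and Vim rise. In hippocampus, astrocytes contact the synapses of the dentate gyrus and CA fields and wrap the vessels with endfeet.

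Total counts per mouse ranged from 27188854 to 47113661 with void and from 33523527 to 45947784 with DHT. Levels are given as CPM, counts scaled to a common library size after TMM normalization, which corrects for differences in library composition. The hippocampal genes Prox1 and Fibcd1 mark dentate granule cells and CA1. They were at 118 to 211 and 94.0 to 164 CPM over the 10 mice. The striatal gene Drd2 was at 1.95 to 3.45 CPM in 9 mice and at 8.84 CPM in DHT mouse 6. Adora2a, also a striatal gene, was at 0.964 to 1.697 CPM over the 10 mice. Its highest value was that of DHT mouse 6, beside 1.585 CPM in DHT mouse 1. The thalamic gene Tcf7l2 was at 6.51 to 17.7 CPM. The library numbers in the labels run from 4 to 11 for void and from 18 to 23 for DHT, so library number and treatment cannot be told apart. The summed level of 12 choroid plexus markers was 378 to 3266 CPM in void-treated mice and 3912 to 5727 CPM in DHT-treated mice, and that of 10 microglial markers was 463 to 560.5 and 686 to 1070.0 CPM. Of the neuron (10), oligodendrocyte precursor (5) and endothelial (8) markers 0 were called, and of 8 meningeal fibroblast markers 1 was higher (Igf2). Of all genes, 5.22% were called higher and 0.261% lower. A positive log2 fold change was found in 1 of the 10 neuron, 5 of the 5 precursor and 2 of the 8 endothelial markers. The medians were -0.09, 0.11 and -0.03. In bulk tissue, fewer astrocytes and less RNA per astrocyte cannot be told apart.

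Astrocyte RNA was present in every library. The 10 genes together took 6725 to 9184 CPM of the void libraries and 7266 to 8594 CPM of the DHT libraries. Per kilobase of exon, Glul had the highest mean in void-treated mice at 359.5 ± 27.1 CPM per kb, and Slc1a2 followed at 336 ± 53.0 (SD, n = 5 each), with overlapping mice. Aldoc (158 ± 24.5), Slc1a3 (82.2 ± 8.90), S100b (67.4 ± 7.28), Aqp4 (35.2 ± 3.74), Gja1 (25.5 ± 1.23), Gjb6 (17.8 ± 3.03) and Sox9 (13.5 ± 1.12) came next in CPM per kb, each with all void mice below those of the gene before it (SD, n = 5 each). Aldh1l1 was lowest at 11.1 ± 1.06 CPM per kb (SD, n = 5) and overlapped with Sox9. The exon lengths are those of another annotation release than the one counted, which could move close neighbours.

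Promoter windows are shown for Glul and Slc1a3, a pair of glutamate cycle genes whose levels varied together from mouse to mouse. RefSeq windows (GRCm38.p6) of 300 bases, from 250 before to 50 after an annotated start, were matched by symbol for 8 of the 10 genes, giving 9 windows. Aqp4 and Sox9 had no match. Capitals mark AGAACA, the half-site of the androgen response element, or AGGTCA, a half-site that many nuclear receptors share.
Glul, chr1:153899679-153899978, plus strand: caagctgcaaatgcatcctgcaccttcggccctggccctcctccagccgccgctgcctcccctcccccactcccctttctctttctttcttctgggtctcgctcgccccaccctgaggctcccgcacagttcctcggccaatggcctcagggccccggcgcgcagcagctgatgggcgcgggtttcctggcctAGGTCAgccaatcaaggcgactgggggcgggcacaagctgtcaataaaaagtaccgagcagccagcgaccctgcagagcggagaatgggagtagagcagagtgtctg
Slc1a3, chr15:8710758-8711057, minus strand: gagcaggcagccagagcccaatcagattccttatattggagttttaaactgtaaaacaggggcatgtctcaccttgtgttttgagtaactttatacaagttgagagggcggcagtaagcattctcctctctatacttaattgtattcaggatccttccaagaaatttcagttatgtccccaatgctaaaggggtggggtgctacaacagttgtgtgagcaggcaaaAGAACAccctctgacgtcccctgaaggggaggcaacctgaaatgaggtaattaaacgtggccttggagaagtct

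AGAACA, searched on both strands, was found in 1 of the 9 windows, at bases 227 to 232 of Slc1a3, and in 6233 of all 32851 windows in the table. AGGTCA was found in 3 of the 9 windows, those of Glul (bases 194 to 199), Slc1a2 and Aldh1l1, and in 16.3% of all windows. The window of Slc1a2 lies inside the gene's annotated bounds. TTGGCA, the half-site of the NFI factors, was in 2 of the 9 windows (S100b and Aldoc) and in 14.1% of all. The SOX core ACAATGG, the full androgen response element (both half-sites facing each other) and a direct repeat of AGGTCA with a spacer of 1 were found in 0 of the 9 windows, and in 3.66%, 0.00913% and 0.0396% of all windows. These matches describe the letters in the windows only.

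None of the 10 genes differed between DHT-treated and void-treated females at an adjusted p under 0.05 in edgeR's quasi-likelihood test, in either direction. Over all genes tested, 5.22% were called higher and 0.261% lower. With the added fold limit of 1 on the log2 scale, 2.17% of all genes were higher and 0.0227% lower, and again 0 of the 10. In all 10 genes the values of the groups overlapped, as they did in most genes tested. Every DHT-treated mouse was above every void-treated mouse in 5.39% of all genes and below in 0.88%. By edgeR's unadjusted p under 0.05, 4 of the 10 genes (Sox9, Aqp4, S100b and Aldh1l1) were higher and 0 lower, against 13.1% higher and 4.22% lower of all genes. DESeq2 called 1 of the 10 higher, Sox9, and 0 lower, against 5.84% higher and 1.07% lower of the 20917 genes to which it gave an adjusted p.

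Log2 fold changes (DHT minus void) were positive in 8 of the 10 genes, with a median of 0.09, beside a median of 0.01 over all genes tested. They ran from -0.04 for Gjb6 to 0.41 for Aqp4, with standard errors from 0.07 to 0.14. The 95% intervals of the 10 genes all lay between -0.30 and 0.71 on the log2 scale, and those of 8 lay within 0.5 of 0. The lowest count behind any of these values was 1217 reads, for Gjb6.

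**Figure D1:**
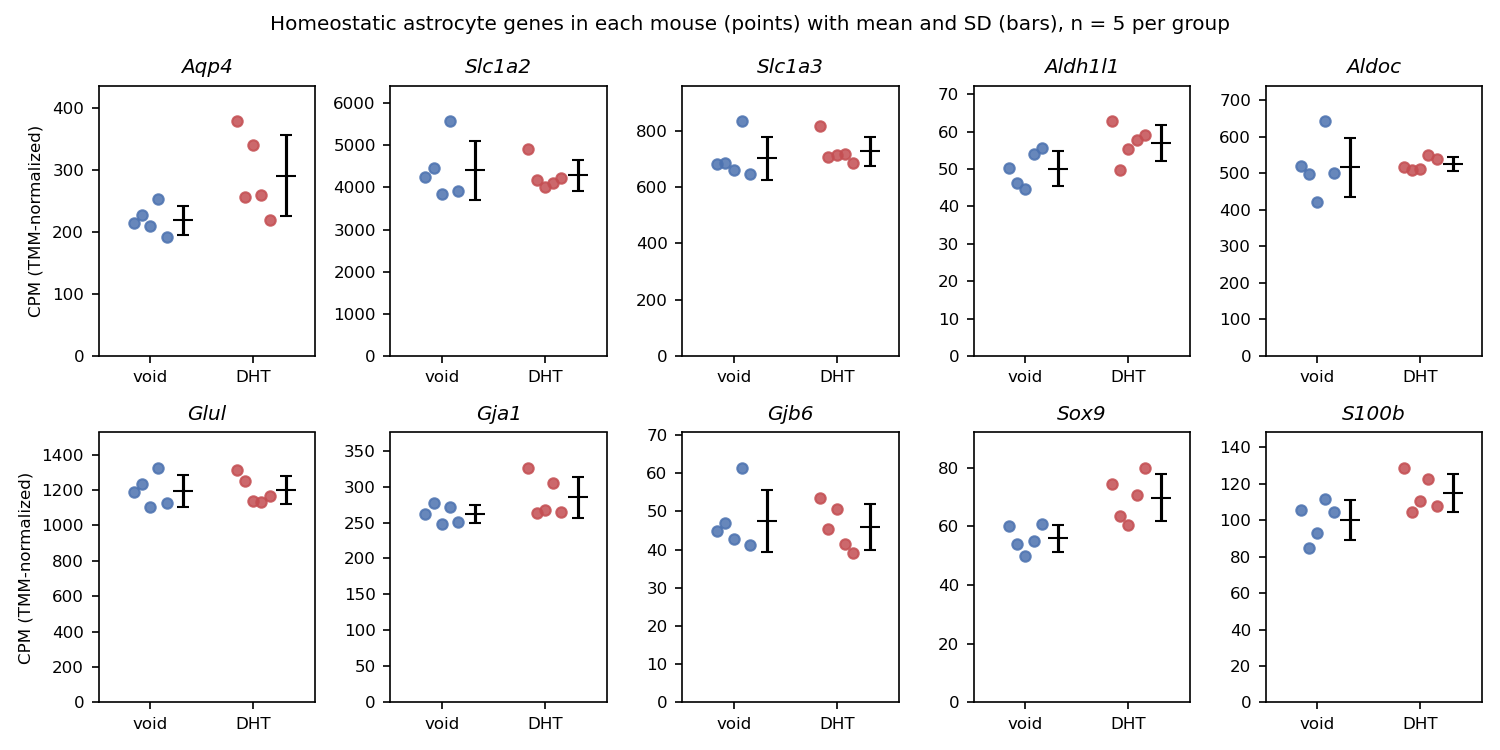
TMM-normalized CPM of the 10 homeostatic astrocyte genes in each mouse (points, 5 void and 5 DHT), with the mean and SD of each group; each y axis starts at 0. The groups overlap in all 10 panels, and in Sox9 and Aqp4 4 of the 5 DHT-treated mice exceed every void-treated mouse.

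The glutamate cycle genes did not pass the test in either direction. Slc1a2 (ENSMUSG00000005089) encodes GLT-1, the transporter that clears most synaptic glutamate in the forebrain. It was at 4241, 4451, 3852, 5573 and 3916 CPM in void mice 10, 11, 4, 5 and 9, and at 4921, 4185, 4016, 4102 and 4217 CPM in DHT mice 1, 2, 3, 5 and 6. All DHT-treated mice fell inside the void range. Its difference on the log2 scale was -0.04 (standard error 0.10, 95% interval -0.26 to 0.18, adjusted p = 0.906, edgeR).

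Slc1a3 encodes GLAST, the other astrocytic glutamate transporter, which is also made by neural stem cells. It was at 681, 688, 662, 835 and 645 CPM in the void mice in the same order, and at 818, 708, 716, 717 and 684 CPM in the DHT mice. Void mouse 5 and DHT mouse 1 stood above the rest of their groups. Between the groups, the log2 fold change was 0.05 (standard error 0.08, 95% interval -0.12 to 0.22, adjusted p = 0.810, edgeR). Within a mouse, the log2 ratio of Slc1a2 to Slc1a3, which does not depend on library scaling, was 2.64 ± 0.0777 in void mice and 2.56 ± 0.0544 in DHT mice (SD, n = 5 per group). The difference of -0.09 gave p = 0.0794 in a two-sided exact permutation test (0.250 after Benjamini-Hochberg adjustment over 7 pairs). Without void mouse 4 it was -0.11, with an exact p of 0.0317 before adjustment.

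Glul encodes glutamine synthetase, which in brain is found in astrocytes and to some degree in oligodendrocytes. Its level was 1186, 1236, 1102, 1326 and 1124 CPM in void mice and 1312, 1251, 1138, 1133 and 1167 CPM in DHT mice, with overlapping groups. On the log2 scale the change was 0.01 (standard error 0.07, 95% interval -0.14 to 0.15, adjusted p = 0.981, edgeR). Relative to Slc1a2, the log2 ratio of Glul was -1.87 ± 0.113 in void mice and -1.84 ± 0.0612 in DHT mice (SD, n = 5 per group), with a two-sided exact permutation p of 0.667, and 0.667 after adjustment over 7 pairs. Exons of Glul, Slc1a2 and Aldh1l1 overlap those of Teddm2, Gm13872 and Gm15756 on the opposite strand, and without a stated strand setting their reads cannot be told apart. These neighbours were at no more than 3.19, 0.895 and 0.0639 CPM.

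Aqp4 had the largest log2 fold change of the 10 genes. It encodes aquaporin 4, the water channel of astrocyte endfeet, which ependymal cells also make. Void mice were at 214, 228, 209, 254 and 192 CPM and DHT mice at 379, 257, 341, 261 and 219 CPM. DHT mice 1, 2, 3 and 5 exceeded every void mouse, and mouse 6 lay among the void mice. The log2 fold change was 0.41 (standard error 0.14, 95% interval 0.11 to 0.71, adjusted p = 0.117, edgeR). Over 19 alternatives its adjusted p ranged from 0.0435 to 0.707. Aqp4 passed 0.05 in 1, the edgeR fit without DHT mouse 6, at a log2 fold change of 0.50. Leaving out DHT mouse 1 gave 0.26. DHT mouse 6 had the highest Drd2, while its Adora2a was close to that of other mice. The part of striatal tissue in its values was not tested.

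Kcnj10, the potassium channel Kir4.1 that shares the endfoot membrane with aquaporin 4, averaged 315 ± 14.8 CPM in void mice and 356 ± 63.0 CPM in DHT mice (SD, n = 5 per group), with an adjusted p of 0.441 (edgeR). The log2 ratio of Aqp4 to Kcnj10 was -0.53 ± 0.0915 in void mice and -0.30 ± 0.290 in DHT mice (SD, n = 5 per group). Among the DHT-treated mice it ran from -0.71 in mouse 6 to 0.08 in mouse 3. The difference of 0.23 had a two-sided exact permutation p of 0.135 (0.250 after adjustment over 7 pairs). It was 0.33 without DHT mouse 6, with an exact p of 0.0317 before adjustment.

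The connexin genes, whose products form the gap junctions between astrocytes, did not pass the test in either direction. Gja1, which encodes connexin 43, was at 262, 277, 248, 272 and 250.03 CPM in void mice and at 326, 263, 267, 305 and 264 CPM in DHT mice. DHT mice 1 and 5 were above all void mice and the other 3 within their range. This gave a log2 fold change of 0.12 (standard error 0.07, 95% interval -0.03 to 0.28, adjusted p = 0.429, edgeR).

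Gjb6 encodes connexin 30, the other main connexin of astrocytes. Its levels were 44.9, 47.1, 42.9, 61.4 and 41.2 CPM with void and 53.5, 45.5, 50.6, 41.4 and 39.2 CPM with DHT. Void mouse 5 was the highest of all 10 mice. The log2 fold change was -0.04 (standard error 0.12, 95% interval -0.30 to 0.21, adjusted p = 0.910, edgeR), and 0.07 without that mouse. Taken within a mouse, the log2 ratio of Gja1 to Gjb6 was 2.47 ± 0.187 in void mice and 2.63 ± 0.187 in DHT mice (SD, n = 5 per group), a difference of 0.16 with a two-sided exact permutation p of 0.246 (0.344 after adjustment over 7 pairs).

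The metabolic enzyme genes Aldoc and Aldh1l1 were not called either. Aldoc encodes aldolase C, the brain form of a glycolytic enzyme. It was at 519, 497, 421, 643 and 501 CPM in void mice and at 518, 508, 512, 549.96 and 540.1 CPM in DHT mice. The DHT mice lay close together, within the wider void range. Its log2 difference was 0.03 (standard error 0.09, 95% interval -0.17 to 0.23, adjusted p = 0.934, edgeR).

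Aldh1l1, a folate enzyme whose promoter is widely used to mark astrocytes, was at 50.2, 46.3, 44.5, 54.1 and 55.6 CPM with void and at 62.8, 49.8, 55.2, 57.7 and 59.1 CPM with DHT. DHT mice 1, 5 and 6 exceeded every void mouse. With an unadjusted p of 0.0410, its log2 fold change was 0.18 (standard error 0.08, 95% interval 0.01 to 0.36, adjusted p = 0.260, edgeR). The log2 ratio of Aldoc to Aldh1l1 was 3.35 ± 0.156 in void mice and 3.21 ± 0.112 in DHT mice (SD, n = 5 per group), and the difference of -0.15 had a two-sided exact permutation p of 0.143 (0.250 after adjustment over 7 pairs). Without void mouse 9 this exact p was 0.0476 before adjustment, at a difference of -0.19.

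Sox9 had the lowest p of the 10 genes. It encodes a transcription factor that specifies astrocytes and is kept in adult astrocytes, and is also found in ependymal cells, choroid plexus and neural stem cells. The void mice were at 60.2, 53.9, 49.8, 54.9 and 60.9 CPM and the DHT mice at 74.5, 63.5, 60.4, 70.6 and 79.9 CPM. All DHT-treated mice except mouse 3 exceeded the highest void mouse. The log2 fold change was 0.32 (standard error 0.09, 95% interval 0.13 to 0.50, adjusted p = 0.0512, edgeR), with an unadjusted p of 0.00286. Over 19 alternatives the log2 fold change of Sox9 lay between 0.25 and 0.41, and the adjusted p between 0.00921 and 0.830. It passed 0.05 in 7 of the 19: DESeq2 (adjusted p = 0.0292), and in edgeR library size alone (0.0287), scaling on neuron genes (0.00921), at least 10 counts in every library (0.0461), and the fits without void mouse 9 (0.0434), DHT mouse 2 (0.0438) or DHT mouse 3 (0.0452). Of all genes, 5.48% were called higher with library size alone, 7.9% with scaling on neuron genes and 5.2% with at least 10 counts in every library.

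Markers of cells that also express Sox9 moved with the groups. The summed level of 8 ependymal markers was 17.3 to 53.9 CPM with void and 57.2 to 72.8 CPM with DHT, and that of 6 markers of subgranular zone stem cells was 108 to 127 and 126 to 139 CPM. Of the 8 ependymal markers 1 was called higher (Cfap126), and of the 6 stem cell markers 1 (Hopx), beside 5.22% of all genes. All 12 choroid plexus markers had a positive log2 fold change and 5 were called higher, and none of the 12 was at 0 in a library. With the choroid plexus level as a covariate, the log2 fold change of Sox9 was 0.25 with an adjusted p of 0.830 (edgeR). This fit called 0 of all genes and had 943 higher at an unadjusted p under 0.05. The covariate, a mean log2 CPM, was 2.48 to 6.21 in void mice and 6.56 to 7.27 in DHT mice. Because it did not overlap between the groups, the fit can hardly tell it apart from treatment. The part of ependymal and stem cells in the Sox9 and Aqp4 values was not tested.

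S100b encodes a calcium-binding protein of astrocytes and also of some oligodendrocyte lineage cells. It was at 106, 84.9, 93.3, 112 and 105 CPM with void and at 129, 105, 111, 123 and 108 CPM with DHT. DHT mice 1 and 5 were above all void mice. At an unadjusted p of 0.0355, the log2 fold change was 0.20 (standard error 0.08, 95% interval 0.02 to 0.38, adjusted p = 0.240, edgeR). Set against Sox9, the log2 ratio of S100b was 0.84 ± 0.139 in void mice and 0.72 ± 0.173 in DHT mice (SD, n = 5 per group), with a two-sided exact permutation p of 0.317 (0.370 after adjustment over 7 pairs). The summed level of 10 oligodendrocyte markers was 3397 to 4687 CPM with void and 4210.1 to 4539 CPM with DHT. Of the 10, 0 were called, beside 5.22% higher and 0.261% lower of all genes. Their log2 fold change was positive in 9 of the 10, with a median of 0.19. By edgeR's unadjusted p under 0.05, 4 of the 10 were higher, against 13.1% of all genes. The part of oligodendrocyte lineage cells in the S100b values was not tested.

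Apart from Sox9, the 10 genes varied together from mouse to mouse within each group, with void mouse 5 and DHT mouse 1 furthest from their group means. After subtraction of each group mean from log2 CPM, 9 of the 10 genes lay above the group mean in void mouse 5 and 9 in DHT mouse 1, while 0 did so in void mouse 4. Void mouse 5 was the highest void mouse in 7 of the 10 genes, DHT mouse 1 the highest DHT mouse in 8, and void mouse 4 the lowest in 6. The mean deviation over the 10 genes was 0.20 in void mouse 5, 0.17 in DHT mouse 1 and -0.13 in void mouse 4, on the log2 scale.

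Over the 45 pairs of genes, the correlation of these deviations across the 10 mice had a median of 0.53 and was positive in 42. It was highest for Slc1a2 with Slc1a3 (0.95), and was 0.91 for Slc1a2 with Glul and 0.83 for Slc1a3 with Glul. The 3 negative values all involved Sox9, with Aqp4 (-0.33), Gjb6 (-0.30) and Slc1a3 (-0.02). The highest value of Sox9 was with Aldh1l1 (0.72), and the median of its values was 0.16. These pair correlations were not computed without void mouse 5 and DHT mouse 1. All genes of a mouse share 1 library, its scaling and its dissection, so these values are a description only. Void mouse 5 also had the lowest Prox1 (118 CPM) of the 10 mice. Tcf7l2 was highest in DHT mouse 1 (17.7 CPM) and void mouse 5 (17.0 CPM), the mice with the highest astrocyte gene levels, followed by void mouse 10 (15.4 CPM), and was at 6.51 to 9.91 CPM in the other 7. The part of tissue composition in the astrocyte gene levels of these mice was not tested.

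**Figure D2:**
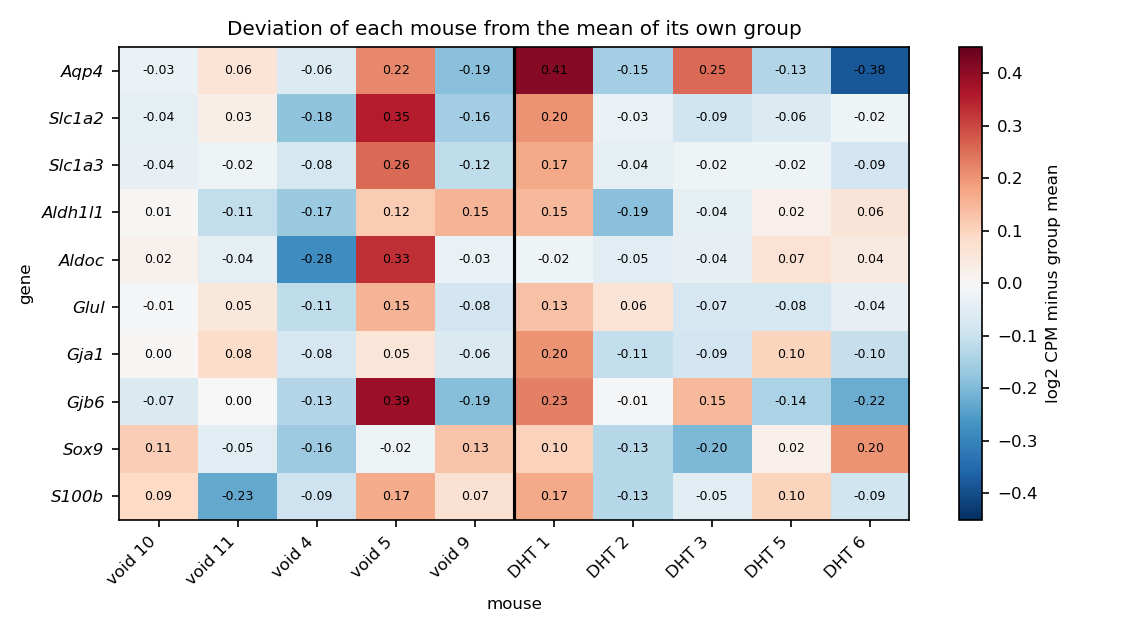
Log2 CPM of each gene (rows) in each mouse (columns) minus the mean of that mouse's own group, with the value in each cell; red is above and blue below the group mean. Void mouse 5 and DHT mouse 1 are above the group mean in 9 of the 10 rows each, and void mouse 4 is below it in all 10.

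The 5 other genes whose deviations were most like the mean of the 10 were Dazap2, Fat2, Nfam1, Slc4a4 and Elovl5, with Pearson correlations of 0.94, 0.94, 0.93, 0.93 and 0.93 over 10 mice. Among the 10 genes themselves, Slc1a3 reached 0.94, Slc1a2 0.92 and Sox9, the lowest, 0.24. Slc4a4, a sodium bicarbonate cotransporter of astrocytes, averaged 319 CPM in void mice, with an adjusted p of 0.997 (edgeR). Dazap2 and Elovl5 averaged 122 and 85.4 CPM in void mice. Fat2 and Nfam1 were low, at 0.934 and 3.86 CPM, so their correlations rest on few reads. Without void mouse 5 and DHT mouse 1, the correlations of the 5 genes lay between 0.61 and 0.73.

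Among 38 further genes of astrocyte function, all tested, 3 were called higher and 0 lower, beside 5.22% and 0.261% of all genes. Their median log2 fold change was 0.05, and it was positive in 23 of the 38. Slc39a12, a zinc transporter of astrocytes, was at 52.6, 52.8, 51.5, 58.8 and 62.0 CPM in void mice and at 85.5, 70.7, 75.2, 73.9 and 69.4 CPM in DHT mice, with no overlap. It rose by 0.43 in log2 terms (standard error 0.07, adjusted p = 0.00961, edgeR) and was called in 10 of the 10 fits that left out 1 mouse.

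Clu encodes clusterin, a secreted chaperone that astrocytes, ependymal cells and choroid plexus make. It was at 622, 581, 514, 635 and 671 CPM with void and at 919, 699.99, 727, 872 and 899 CPM with DHT, again without overlap. It rose by 0.45 in log2 terms (standard error 0.09, adjusted p = 0.0194, edgeR), and was called in 6 of the 10 fits without 1 mouse. Slc38a3 encodes SNAT3, which exports glutamine from astrocytes. It was at 61.2, 54.4, 54.6, 58.7 and 80.6 CPM with void and at 92.1, 70.2, 74.1, 95.8 and 105 CPM with DHT, with 3 DHT mice above all void mice. It rose by 0.50 in log2 terms (standard error 0.13, adjusted p = 0.0497, edgeR), and was called in 2 of the 10 fits without 1 mouse. With the choroid plexus covariate the log2 fold change was 0.22 for Slc38a3 (adjusted p = 0.922), 0.40 for Clu (0.693) and 0.34 for Slc39a12 (0.640, edgeR). Without void mouse 11, and likewise without void mouse 4, DHT mouse 1 or DHT mouse 5, 1 of the 38 was called. Over all genes, these fits called 351, 493, 395 and 651 higher, against 920 with all mice.

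By role, 1 of 6 genes of glutamate and amino acid handling was called higher (Slc38a3), 0 of 10 of ions, water and endfeet, 0 of 6 identity factors, 1 of 6 of metabolism (Slc39a12), 0 of 4 surface receptors and 1 of 6 secreted or synapse-directed genes (Clu). The endfoot gene with the lowest p was Mlc1, which encodes a membrane protein of perivascular endfeet, at 0.26 on the log2 scale (adjusted p = 0.0893, edgeR). The lowest p among the identity factors was that of Sox2, at 0.12 (adjusted p = 0.423, edgeR), and among the receptors that of Gpr37l1, at 0.22 (adjusted p = 0.467, edgeR).

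Of 12 reactive astrocyte genes in the same libraries, all tested, 7 were called higher with DHT and 0 lower, beside 5.22% and 0.261% of all genes. Their median log2 fold change was 0.89. Gfap, the intermediate filament of astrocytes, was at 559, 341, 335, 482 and 439 CPM in void mice and at 1349, 644, 1026, 965 and 892 CPM in DHT mice, without overlap. It rose by 1.18 in log2 terms (standard error 0.19, adjusted p = 0.00761, edgeR). Timp1, an inhibitor of metalloproteinases, rose by 2.04 (adjusted p = 0.0240, edgeR), from 0.252 ± 0.0721 CPM in void mice to 1.04 ± 0.628 CPM in DHT mice (SD, n = 5 per group). At these low levels, the change of Timp1 rests on few reads. Aspg, an asparaginase, and Osmr, the oncostatin M receptor, rose by 1.31 and 1.27 on the log2 scale (adjusted p = 0.0229 and 0.0155, edgeR). The other 3 called genes were Vim, Serpina3n and S1pr3. Several of the 12, such as Cd44, Timp1 and Vim, are also expressed by microglia, vessels or meninges, and 8 of the 10 microglial markers were called higher.

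The log2 ratio of Gfap to Slc1a2 compared a reactive with a homeostatic gene within each mouse. It was -2.92, -3.71, -3.52, -3.53 and -3.16 in void mice and -1.87, -2.70, -1.97, -2.09 and -2.24 in DHT mice. The groups did not overlap. The difference was 1.20, a 2.29-fold higher ratio with DHT, with a two-sided exact permutation p of 0.00794. That is the lowest p possible for 5 mice against 5, and it was 0.0556 once adjusted over the 7 pairs. With any 1 mouse left out the difference stayed between 1.11 and 1.33. The groups overlapped in the other 6 ratios.

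The number of reactive genes called depended on the mice included. Without void mouse 11, 2 of the 12 were called, and without DHT mouse 1, 3 of the 12. Over all genes, these fits called 351 and 395 higher, against 920 with all mice. Gfap and Vim were called in 10 of the 10 fits without 1 mouse. Osmr was called in 9 of these 10 fits, S1pr3 in 8, Serpina3n in 7, Aspg in 6 and Timp1 in 5. Without void mice 5 and 11, which have the lowest choroid plexus levels, 0 of the 12 and 0 of all genes were called in edgeR, the lowest adjusted p being 0.0728. In that fit 1804 genes were higher at an unadjusted p under 0.05, and the log2 fold change of Gfap was 1.11. Under the choroid plexus covariate, which did not overlap between the groups, the log2 fold change of Gfap was 1.10 (adjusted p = 0.614, edgeR).

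**Figure D3:**
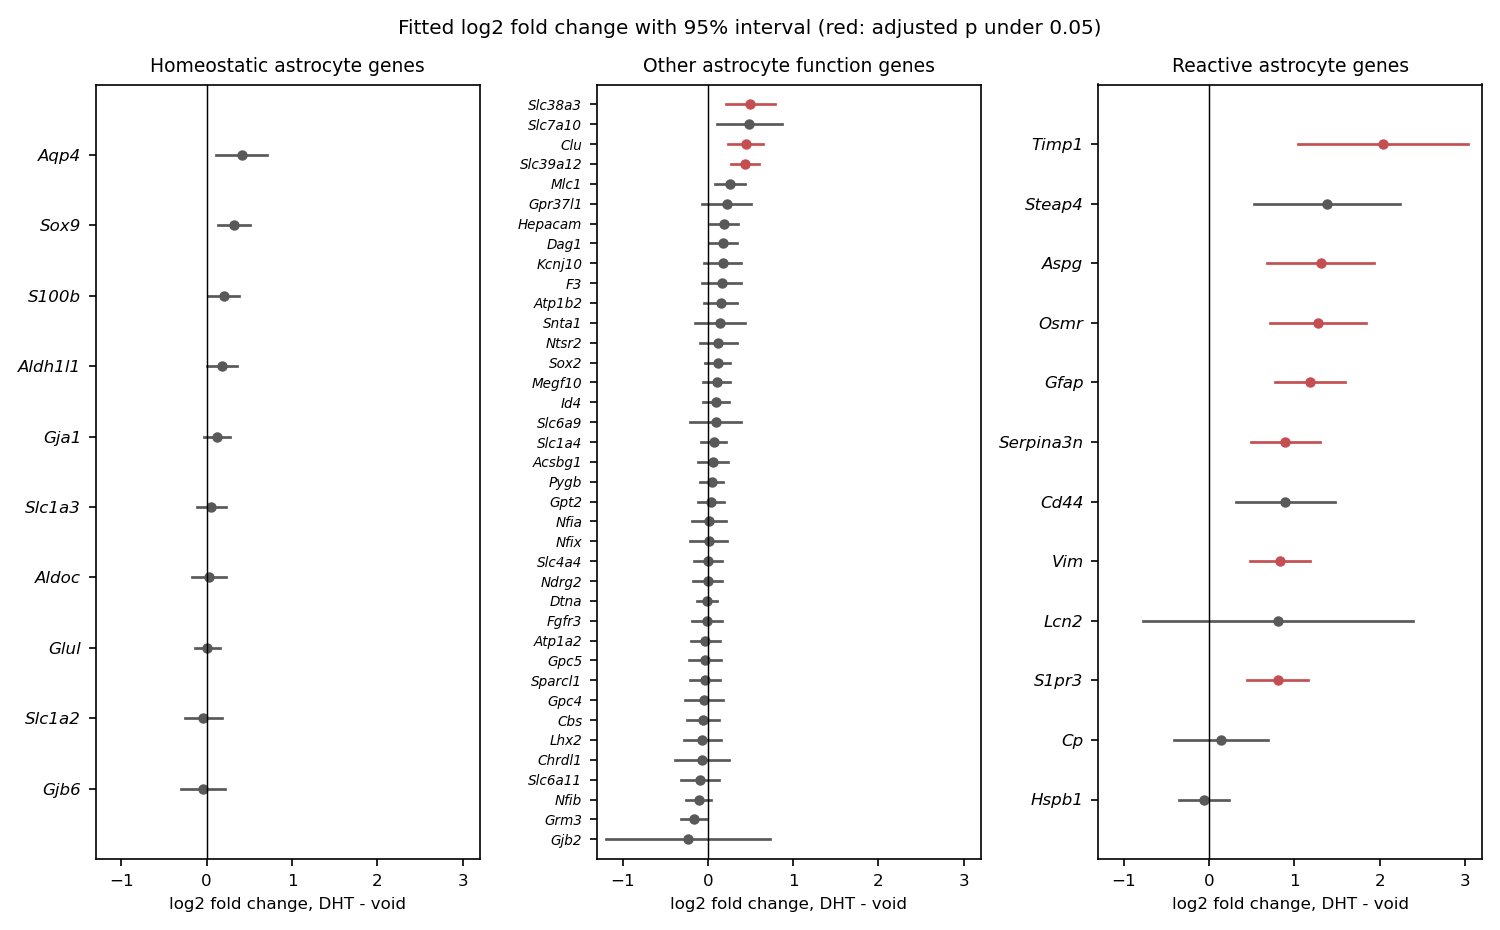
Log2 fold change (DHT minus void) and 95% interval from the edgeR fit for the 10 homeostatic astrocyte genes, the 38 other astrocyte function genes and the 12 reactive astrocyte genes; red marks an adjusted p under 0.05 over all genes. The homeostatic genes lie between -0.04 and 0.41 with 0 called, 3 of the 38 are red, and 7 of the 12 reactive genes are red.

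**Figure D4:**
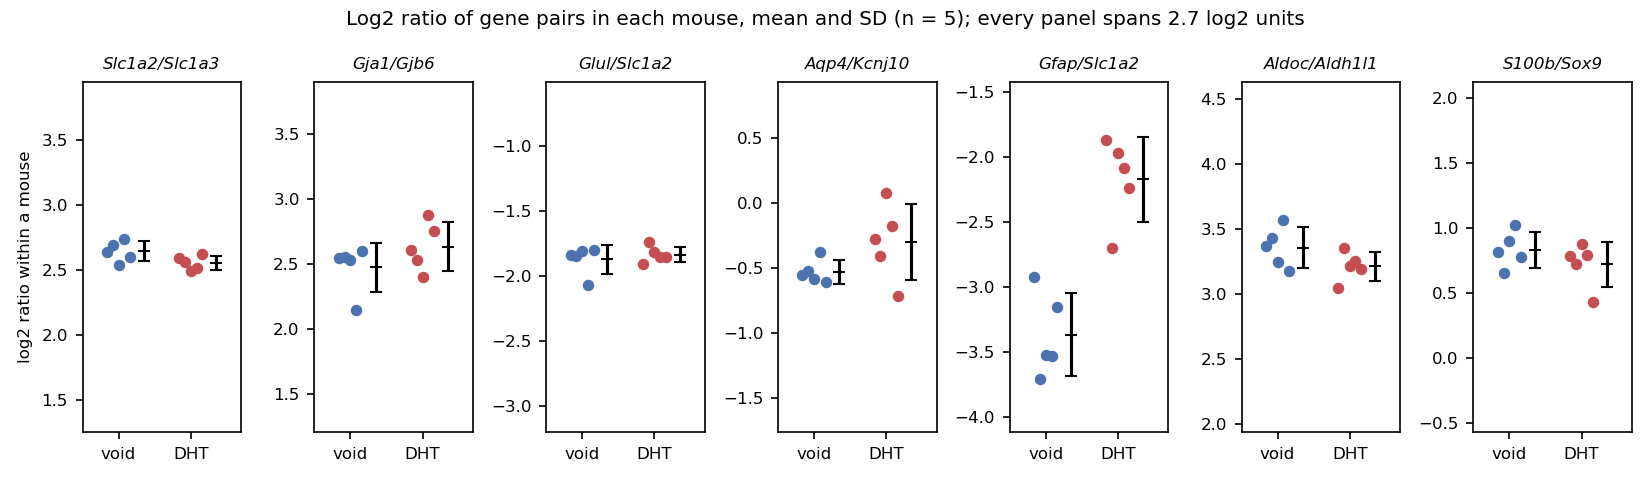
Log2 ratio of 7 gene pairs within each mouse (points, 5 void and 5 DHT), with the mean and SD of each group. The groups are fully apart for Gfap/Slc1a2, with a difference of 1.20, and overlap for the other 6 pairs.

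**Figure D5:**
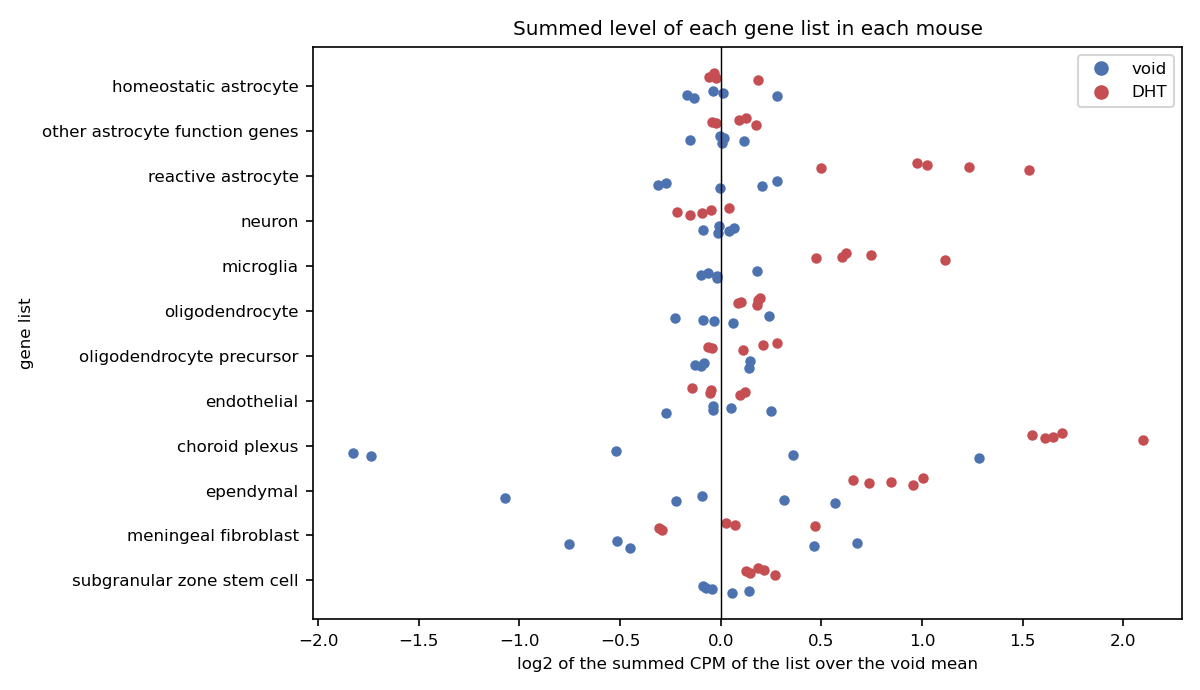
Log2 of the summed CPM of each gene list in each mouse relative to the void mean of that list (points, 5 void and 5 DHT mice); sums are led by the most abundant genes of a list. The homeostatic astrocyte sums overlap between the groups, whereas the reactive astrocyte, microglia, choroid plexus and ependymal sums of all DHT-treated mice are above those of all void-treated mice.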

How the data were processed

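RNA-seq libraries from hippocampus of 10 female P301S mice (5 void, 5 DHT) were analysed, with groups from the sample labels. The authors deposited raw counts per gene, made by trimming with HTStream, aligning with STAR 2.7.10b and counting. The study's methods name mm10 and the submitters' processing notes GRCm39, and 99.9% of the 51948 identifiers shared with GENCODE M21 (of 56884) carried a later version than it. That reference was therefore used only for names, exon lengths and overlaps. The annotation, the strand setting and the handling of reads that match several genes are not given in the sources used here. The submitters' notes also list DESeq2 1.42.0.

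Counts were fitted in R 4.3.3 with edgeR 4.0.16 (TMM, filter on expression by group, quasi-likelihood test, Benjamini-Hochberg adjustment over 17622 genes). The threshold for a call was an adjusted p of 0.05, and a fold limit of 1 (log2) was an alternative. The standard error was taken as the absolute log2 fold change over the square root of F. Ratios used log2 CPM with a prior count of 2 and two-sided exact permutation tests. Other alternatives were DESeq2 1.42.0, its size factors, library size alone, scaling on neuron genes, minimums of 1 count over all or 10 in every library, a choroid plexus covariate and leaving out each mouse. Leaving out 2 mice at once was added after the data were seen. The fit was tested on simulated data.

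The 10 genes, the gene lists and the tests were chosen with earlier results of these data known. Named are all 10 members, at most 4 called genes of each companion list by size of change (where none was called, the gene with the lowest p), and the 5 genes most like the members. The tissue genes, the lowest p of a role, the other called reactive genes, Kcnj10 and Cd44 were named in addition, after their values were seen. Per the study's methods, littermates were assigned at random to the implants and mice shared cages only with others of their treatment, so cage and treatment cannot be told apart. The litter and cage of each mouse are not given in the sources used here.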

Additional observations from a re-analysis of the deposited data

Results flagged for a closer look

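Of 34 groups of 5 mice examined (the 10 genes and the 7 ratios in each treatment), 5 held a mouse whose gap to its nearest neighbour exceeded 0.71 of the group's range, where chance gives about 1 in 20, or 1.7. DHT mouse 1 was highest for Slc1a2 (0.778) and for Slc1a3 (0.754). Void mouse 5 was highest for Slc1a3 (0.776), and lowest for the log2 ratio of Gja1 to Gjb6 (0.851) and of Glul to Slc1a2 (0.822). The transporters vary together and 1 ratio shares a gene with them, so these values are not independent. Without both mice, the log2 fold changes of Slc1a2 and Slc1a3 were -0.03 and 0.04.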

How the results depend on the processing

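No paired analysis was possible because the litter of each mouse is not given in the sources used here. Number 5 is the only replicate number found in both groups, and the labels do not say that equal numbers are pairs. Of 190 log2 fold changes of the 10 genes under 19 alternatives, 8 were called, 7 of Sox9 and 1 of Aqp4, and 26 changed sign, in Aldoc, Glul, Slc1a2, Slc1a3 and Gjb6. The number of the 10 genes called higher, 0, was 1 with DESeq2, library size alone, scaling on neuron genes and at least 10 counts in every library, and 0 to 1 when a single mouse was left out (1 without void mouse 9, DHT mouse 2, DHT mouse 3 or DHT mouse 6). Over all genes, the same fits called 1221 higher with DESeq2, 966 with library size alone, 1393 with scaling on neuron genes, 830 with at least 10 counts, and 1072, 1024, 518 and 763 without these mice. The number of the 10 genes called lower was 0 in every fit.

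Signs changed for Aldoc with DESeq2 (-0.000526) and its size factors in edgeR (-0.000889), and for Glul with the same (-0.0198 and -0.0199), with at least 1 count in all (-0.00523) and without void mouse 5 and DHT mouse 1 (-0.0235). Slc1a2 and Gjb6 changed sign with scaling on neuron genes (0.0616 and 0.0642), the choroid plexus covariate (0.216 and 0.215) and without void mice 5 and 11 (0.0702 and 0.0709). Leaving out single mice, the log2 fold change spanned -0.0389 to 0.117 for Aldoc, -0.0607 to 0.0463 for Glul, -0.127 to 0.0592 for Slc1a2, -0.137 to 0.0657 for Gjb6 and -0.0251 to 0.123 for Slc1a3. The median over the 10 genes was 0.0167 to 0.130 without single mice, 0.211 with the covariate and 0.187 with scaling on neuron genes, which moved the median of all genes to 0.103.

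Over all genes, 920 were higher and 46 lower. These became 382 and 4 with the fold limit, 1393 and 7 with scaling on neuron genes, 0 and 0 with the covariate, 0 and 0 without void mice 5 and 11, 209 and 11 without void mouse 5 and DHT mouse 1, and 351 (without void mouse 11) to 1072 and 5 to 77 without single mice. DESeq2 gave 224 lower genes. Among the 38 other astrocyte genes the 3 called became 5 with scaling on neuron genes, 1 without void mouse 5 and DHT mouse 1, 0 with the fold limit, the covariate or without void mice 5 and 11, and 1 to 4 without single mice. Without single mice, the ratio differences spanned -0.113 to -0.0629 for Slc1a2/Slc1a3, 0.0746 to 0.216 for Gja1/Gjb6, -0.0125 to 0.0554 for Glul/Slc1a2 (negative without void mouse 5), 0.136 to 0.333 for Aqp4/Kcnj10, -0.192 to -0.0921 for Aldoc/Aldh1l1 and -0.158 to -0.0391 for S100b/Sox9. A prior count of 0.5 changed no ratio's direction or side of 0.05. Why these values moved: the cause was not tested.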
